A study of Mus musculus with 59 samples.

Results

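The sites described here are PPARδ binding sites that were called in fasted mouse liver, were not called in fed liver, and had no PPARα peak beside them in either state. They were chosen by peak calls alone: of the 2399 PPARδ peaks of fasted livers, 533 had no peak center within 200 bp in the PPARδ list of fed livers or in the PPARα lists of fed and fasted livers, which is 22.2% of the fasted list. Leaving out peaks with a fed PPARδ center alone left 869 peaks, and leaving out peaks with a PPARα center alone left 660. Chromatin of whole livers from male wild-type (WT) C57BL/6 mice, of an age not given in the sources used here, either fed ad libitum or fasted overnight, was immunoprecipitated with antibodies to PPARδ, PPARα or BCL6 and sequenced. BCL6 was also mapped in fed livers of Bcl6 fl/fl mice, which carry the floxed allele and were the controls of the liver knockout. Each of the 7 lists combines 3 replicates of 1 group, 3 animals according to the methods, so no value below has an error between replicates, and confidence intervals (95%, Wilson) cover counting error only. The lists give positions without tag counts or scores. Depth is therefore unknown, and a site near the calling threshold can be listed in 1 feeding state and missed in the other.

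PPARδ is a nuclear receptor that binds fatty acids and joins with RXR on DNA. The pair binds a direct repeat of the half-site AGGTCA with a single base between the copies, called DR1, and PPARα binds the same element. PPARα is abundant in hepatocytes and drives fatty acid oxidation during fasting, whereas PPARδ is made in many cell types, among them endothelial cells, stellate cells and macrophages.

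The 533 sites were set beside 3 other classes of PPARδ peaks: 336 called only in fasted livers that did have a PPARα center, 127 called in both states without PPARα, and 580 called only in fed livers without PPARα. The last class was 7.91% of the 7328 fed PPARδ peaks. Most PPARδ peaks belonged to classes with PPARα, with 1403 in both states and 5218 in fed livers only.

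**Figure D1:**
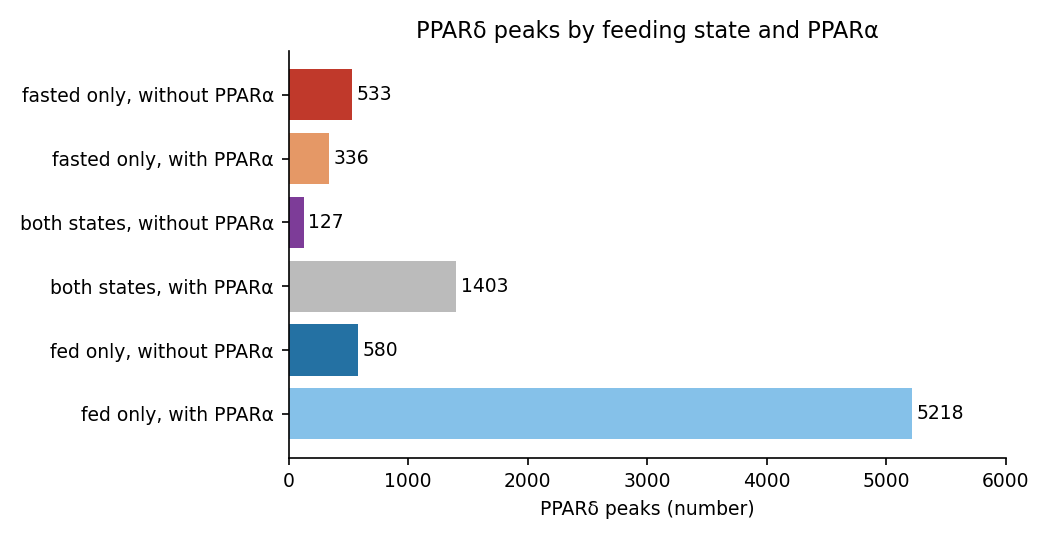
Number of PPARδ peaks (x axis) in each class of feeding state and PPARα co-occurrence (y axis), 1 bar per class, counted from the pooled lists. The 533 fasted-only sites without PPARα outnumber the 336 fasted-only sites with it, whereas among fed-only peaks 5218 have PPARα and 580 do not.

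Of 533 sites, 1 had a perfect DR1 and 14 had a DR1 with 1 mismatch. The perfect site and the 7 of the 14 whose match lay closest to the peak center are printed first, since they show the PPAR element at places where neither PPARα list nor the fed PPARδ list has a peak. Each run is 60 bases of GRCm38, the assembly of mm10, read 5′ to 3′ on the strand of the match and named for the gene with the nearest protein-coding transcription start site (TSS). Capitals mark the DR1 match.
Tiparp, chr3:65516031-65516090, minus strand: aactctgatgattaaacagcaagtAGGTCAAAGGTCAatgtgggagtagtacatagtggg
Enho, chr4:41626904-41626963, minus strand: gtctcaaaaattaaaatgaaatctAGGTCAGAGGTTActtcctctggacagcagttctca
Myom2, chr8:15392515-15392574, plus strand: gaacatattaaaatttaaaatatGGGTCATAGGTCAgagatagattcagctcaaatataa
Shtn1, chr19:59074680-59074739, minus strand: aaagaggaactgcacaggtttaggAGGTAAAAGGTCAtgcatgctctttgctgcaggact
Cdc42ep4, chr11:113805144-113805203, minus strand: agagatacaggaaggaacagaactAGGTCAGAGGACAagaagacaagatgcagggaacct
1810020O05Rik, chr6:87723773-87723832, minus strand: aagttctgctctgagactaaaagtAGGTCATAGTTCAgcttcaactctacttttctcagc
St3gal4, chr9:35031828-35031887, plus strand: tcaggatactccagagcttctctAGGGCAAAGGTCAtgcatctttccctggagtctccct
Sec24a, chr11:51726894-51726953, minus strand: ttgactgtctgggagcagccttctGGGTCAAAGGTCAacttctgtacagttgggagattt
The site near *Tiparp*, which encodes a mono-ADP-ribosyltransferase that limits the aryl hydrocarbon receptor, was the only site among the 533 with a perfect DR1. It lay in intergenic DNA at chr3:65515974-65516178, 12371 bp upstream of the TSS, and its nearest PPARα center was 12198 bp away. The other 7 sites printed had 1 mismatch each. Counted from 1 at the 5′ end of the DR1, the change was C12T at the site near *Enho*, the gene of the secreted peptide adropin, C5A at *Shtn1* and T4G near *St3gal4*, a sialyltransferase gene. The *Enho* site lay in intron 13 of the neighbouring gene *Dnaic1*, the *Shtn1* site in intron 1 of that gene, and the *Sec24a* site in intron 8 of that gene. Distances to the nearest PPARα center in the fasted list ranged from 1036 bp at *Shtn1* to 389181 bp at *Myom2*.

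A DR1 with up to 2 mismatches stood in the 200 bp around the center of 92 of the 533 sites, or 17.3% (14.3% to 20.7%). In windows 1000 bp to either side the share was 2.63%, and in 1323711 windows of 200 bp spread over the genome, 1 in every 2000 bp, it was 2.33%. The 3 other classes had higher shares, but no difference passed the test. The share was 19.9% at fasted-only peaks with PPARα (adjusted p = 0.972, two-sided Fisher's exact test on peaks), 21.2% at fed-only peaks without PPARα (adjusted p = 0.552), and 26.0% at peaks of both states without PPARα (adjusted p = 0.271). The half-site AGGTCA is part of every perfect DR1 and was counted whether inside or outside a DR1. It was found at 172 sites or 32.3%, against 12.1% in the neighbouring windows and 11.0% in the genome windows. It was found at 40.2% of fasted-only peaks with PPARα, and the difference did not pass the test (adjusted p = 0.271). Of the 533 sites, 64 of the 92 with a DR1 and 108 of the 441 without one held a half-site.

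The DR1 matches sat at the peak centers. Of 96 matches within 100 bp of a center, 68 lay within 50 bp of it, and 19 matches lay 400 to 500 bp away. When the half-site was searched in pairs at spacings of 0 to 8 bp, with 1 mismatch allowed over the pair, the direct repeat with a spacer of 1 bp stood apart from the other arrangements. It was found at 15 sites (2.81%, against 0.469% of neighbouring windows), whereas no other spacing or orientation was found at more than 3 sites. This stricter DR1 was found at 6.85% of fasted-only peaks with PPARα (odds ratio 0.394, adjusted p = 0.0908, two-sided Fisher's exact test), 5.34% of fed-only peaks without PPARα (odds ratio 0.513, adjusted p = 0.221) and 4.72% of peaks of both states without PPARα (odds ratio 0.584, adjusted p = 0.951). The 92 best matches also resembled one another outside the repeat, where the search asked for nothing. The base just before the first half-site was T in 55.4%, the fourth base before it was A in 54.3%, and the third was A in 46.7%. At 360 DR1 matches of PPARδ peaks with PPARα in both states, the same positions held T in 52.8%, A in 44.4% and A in 41.4%. At 1031 matches of fed-only peaks with PPARα, the largest class, they held T in 24.9%, A in 32.5% and A in 29.8%. In the same order, the shares were 57.6%, 54.5% and 63.6% at 33 matches of peaks of both states without PPARα. They were 46.3%, 52.2% and 40.3% at 67 matches of fasted-only peaks with PPARα, and 39.8%, 41.5% and 34.1% at 123 matches of fed-only peaks without it. The spacer was A in 41.3% and G in 32.6% of the 92, against 55.0% and 26.4% of the 360 and 48.1% and 30.8% of the 1031. It was A in 63.6% and G in 24.2% of the 33, and A in 67.2% and G in 17.9% of the 67. For the 123 the shares were 53.7% and 26.8%.

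**Figure D2:**
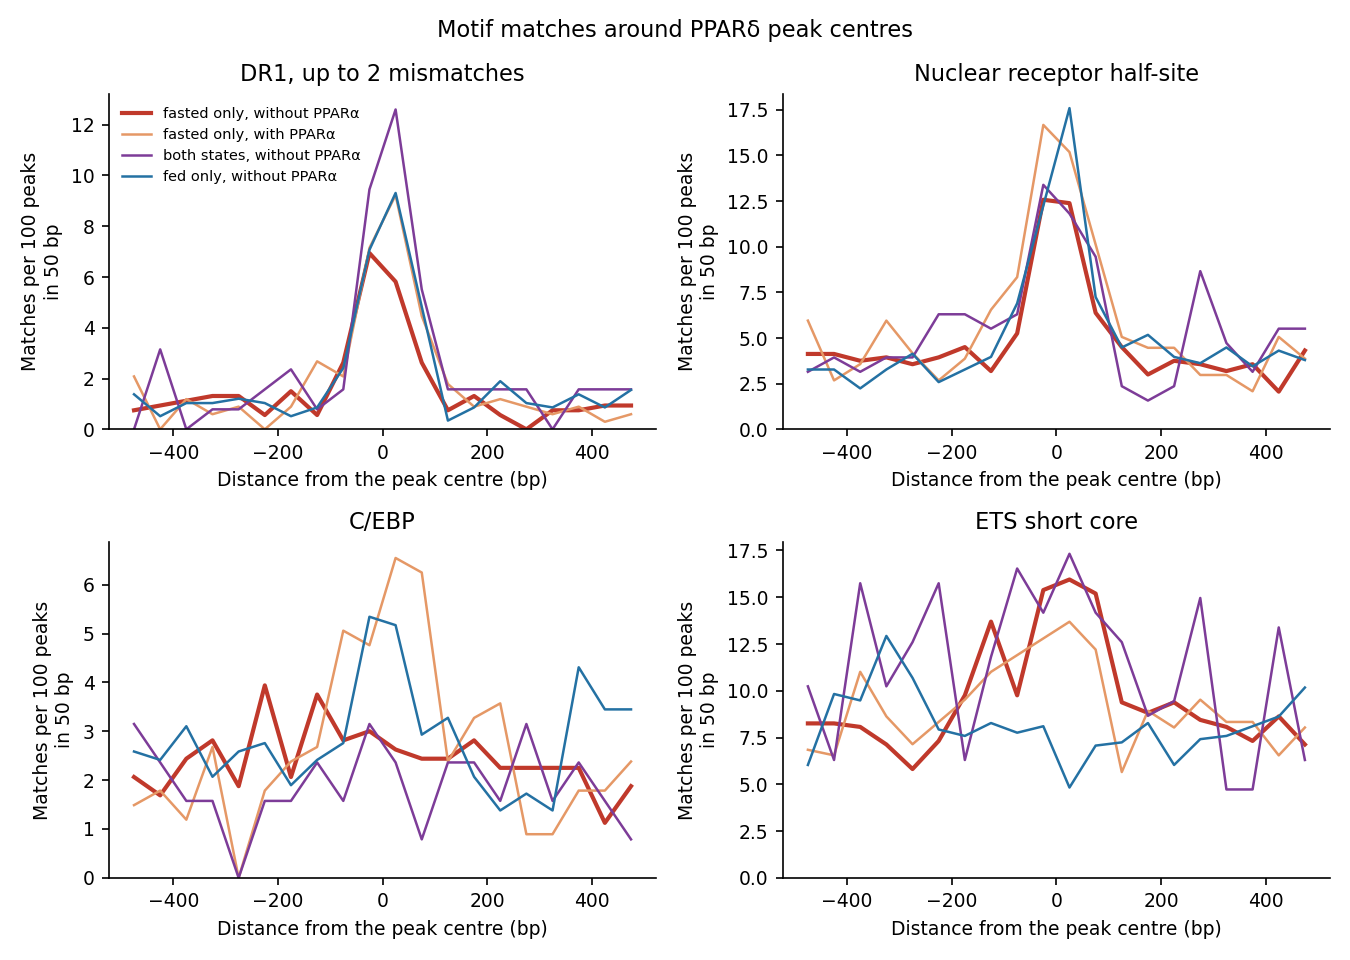
Matches per 100 peaks in bins of 50 bp (y axis) against distance from the peak center in bp (x axis) for 4 motifs and 4 classes of PPARδ peaks, without replicates. DR1 and half-site matches are highest at the center in all 4 classes, and C/EBP matches rise at the center in fasted-only peaks with PPARα and fed-only peaks. The ETS short core rises around the center in the 533 sites, in fasted-only peaks with PPARα and in peaks of both states without it. It does not rise there in fed-only peaks without PPARα.

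Of 60 comparisons, 20 motifs against 3 classes, 2 passed an adjusted p of 0.05, which is 3.33%, and both were elements of hepatocyte factors that were less frequent at the 533 sites. The C/EBP element TTGCNNAA, bound by C/EBPα and C/EBPβ, was found at 52 sites, or 9.76% (7.52% to 12.6%), against 19.3% (15.5% to 23.9%) of fasted-only peaks with PPARα (odds ratio 0.451, adjusted p = 0.00277, two-sided Fisher's exact test). In neighbouring windows the share was 8.35%, and in the genome windows it was 9.39%. Against fed-only peaks without PPARα, of which 14.1% held it, the difference did not pass in these windows (adjusted p = 0.271) but passed in windows of 50 bp (1.5% against 5.86%, adjusted p = 0.00671), and at peaks of both states without PPARα it was 6.30%. The element TATTGAT, bound by HNF6 and CUX2, was found at 9 sites, or 1.69% (0.891% to 3.18%), against 8.28% (6.30% to 10.8%) of fed-only peaks without PPARα (odds ratio 0.19, adjusted p = 2.32e-05). The share was 1.79% of fasted-only peaks with PPARα and 0.787% of peaks of both states without it, and neither difference passed (adjusted p = 1). Its share was 1.88% in neighbouring windows of the 533 sites, close to that of the sites, and 3.20% in the genome windows. Beside fed-only peaks without PPARα, 2.59% of neighbouring windows held it. These tests count peaks, which are not replicates of a feeding state.

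Elements of other hepatocyte factors did not pass the test in these windows, except that of HNF4 when no mismatch was allowed. The HNF4 element CAAAGTCCA, with 1 mismatch allowed and letters that overlap those of a DR1, was found at 9.94% of the sites, 14.9% of fasted-only peaks with PPARα and 13.4% of fed-only peaks without it (adjusted p = 0.271 and 0.42), and in 5.78% of genome windows. Without a mismatch it was found at 0% of the sites and 1.72% of fed-only peaks without PPARα (adjusted p = 0.0406). The forkhead element TGTTTAC was found at 4.69%, 7.74% and 3.97% (adjusted p = 0.42 and 1), and in 3.0% of genome windows. The element TTCCTAGAA of BCL6 and STAT factors, with 1 mismatch allowed, was found at 9.94% of the sites, against 6.85% of neighbouring windows and 7.37% of genome windows. This element was found at 8.04% of fasted-only peaks with PPARα, 9.83% of fed-only peaks without it and 7.87% of peaks of both states without it. No difference from these classes passed the test. A glucocorticoid receptor element, GNACANNNTGTNC, was found at 12 sites, or 2.25%, in 0.0938% of neighbouring windows and in 0.318% of genome windows. The share was 1.49% of fasted-only peaks with PPARα, 1.38% of fed-only peaks without it and 0% of peaks of both states without it. None of these 3 differences passed the test, and peaks of both states with PPARα had a share of 3.35%. Among the 12 sites were those near *Egln1*, an oxygen sensor, *Ctsc*, a lysosomal protease, and *Acox3*, a peroxisomal acyl-CoA oxidase, which were picked after their values were seen. None of the 533 windows held the CTCF core, the cyclic AMP element TGACGTCA or the ZBTB33 palindrome, found in 0.554%, 0.107% and 0.00181% of genome windows, and 0 of 533 allows a share of up to 0.563%, taking 3 counts as the limit of a count of 0.

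A further sequence came from a count of all short sequences in the sites and is described without a test, because it was picked on these sites. Among the 6-base sequences that were most in excess over neighbouring DNA were AGGTCA and its shifted copies, and also AGGAAG, a core bound by ETS family factors. In windows of 100 bp, AGGAAG was found at 134 sites, or 25.1%, against 11.7% of neighbouring windows, and the 8-base sequence ACAGGAAG at 5.63% against 1.17%. In the 200 bp windows AGGAAG was found at 39.2% (35.2% to 43.4%) of the sites, against 24.5% of neighbouring windows and 21.1% of genome windows. The longer core CAGGAAGT, which holds the shorter letters, was found at 29 sites or 5.44%, against 1.97% and 1.33%. This core was found at 5.95% of fasted-only peaks with PPARα, 11.8% of peaks of both states without it and 1.21% of fed-only peaks without it. Of the other fasted classes, AGGAAG was found at 36.3% of fasted-only peaks with PPARα and 44.1% of peaks of both states without it. It was found at 23.6% of fed-only peaks without PPARα, 23.8% of peaks of both states with PPARα and 24.7% of all 29085 PPARα peaks of fasted livers. The ETS element CCGGAAGT, as in many housekeeping promoters, was found at 0.938% of the sites and in 0.114% of genome windows. AGGAAG was found at 44 of the 92 sites with a DR1 (47.8%) and at 165 of the 441 without (37.4%).

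These 5 sites are printed with the ETS core in capitals, 5′ to 3′ on the strand of the core. They were picked after their values were seen, for nearest genes known from endothelial cells, macrophages or basement membrane. They therefore do not show how common such genes are among the 29 sites with CAGGAAGT or the 209 with AGGAAG. In the marker counts below, endothelial and hepatocyte markers were nearest to 2 sites each, stellate cell markers to 3, and Kupffer cell and macrophage markers to 0.
Fabp4, chr3:10213953-10214012, minus strand: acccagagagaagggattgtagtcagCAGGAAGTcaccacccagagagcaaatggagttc
Cd93, chr2:148530730-148530789, plus strand: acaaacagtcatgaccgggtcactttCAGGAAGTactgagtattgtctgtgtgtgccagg
Lamb1, chr12:31302331-31302390, minus strand: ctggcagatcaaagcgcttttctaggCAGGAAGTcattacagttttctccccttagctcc
Il4ra, chr7:125566549-125566608, minus strand: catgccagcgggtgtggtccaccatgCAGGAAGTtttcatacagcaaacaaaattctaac
Gpihbp1, chr15:75596569-75596608, plus strand: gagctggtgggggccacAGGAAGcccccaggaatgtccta
The site near *Fabp4*, a carrier of fatty acids in adipocytes, macrophages and capillary endothelium, lay 5313 bp upstream of the TSS in intergenic DNA at chr3:10213827-10214031, and its nearest PPARα center was 7442 bp away. The site near *Cd93*, an endothelial and myeloid surface protein, lay 87231 bp upstream, and that in *Lamb1*, a laminin chain, 37083 bp downstream of the TSS. The site in *Il4ra*, the interleukin-4 receptor, lay 14363 bp downstream of the TSS. That of *Gpihbp1*, which carries lipoprotein lipase to the capillary surface, had its center 62 bp upstream of the TSS.

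Lists of cell type markers, also added after the sites had been seen, were counted by the nearest protein-coding TSS within 100 kb, which 400 of the 533 sites had. Endothelial markers were nearest to 2 sites (0.5%, 0.137% to 1.80%, against 0.171% of genome windows), 1 in intron 10 of *Kdr*, the main VEGF receptor, and 1 in intron 3 of *Ets1*. Stellate cell markers were nearest to 3 sites (0.75%, against 0.0904% of genome windows), at *Col1a1*, *Colec11* and *Reln*. Hepatocyte markers were nearest to 2 (0.5%, against 0.0962%), at *Tdo2* and *Apoa1*, and Kupffer cell or cholangiocyte markers to 0. Of 293 fasted-only peaks with PPARα that had a TSS within 100 kb, endothelial markers were nearest to 2 (0.683%) and stellate, Kupffer cell and hepatocyte markers to 1 each. Of 495 fed-only peaks without PPARα, endothelial and stellate markers were nearest to 0 and hepatocyte markers to 4 (0.808%). The livers were whole tissue, and neither the part of cell types other than hepatocytes in these calls nor the factor behind the ETS core was tested.

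Most sites lay far from PPARα peaks. The nearest PPARα center of either list was at a median of 27803 bp (quartiles 7735 and 73891 bp), and 378 sites, or 70.9%, had none within 10 kb. Only 16 sites had one between 200 and 400 bp and 41, or 7.69%, within 1 kb. Fed-only peaks without PPARα lay closer, with a median of 4007 bp and 31.2% within 1 kb, and peaks of both states without PPARα had a median of 13282 bp. The nearest fed PPARδ center was at a median of 100978 bp and in no case closer than 268 bp. The sites just inside the limit lay near *Nedd4*, *Lrch1* and *Dennd4b*, with PPARα centers 205, 209 and 251 bp away. Of the fasted-only peaks just outside it, those near *Enpep* and *Pecam1* had PPARα centers 180 and 177 bp away. The distances are part of how the sites were chosen and are given as a description.

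**Figure D3:**
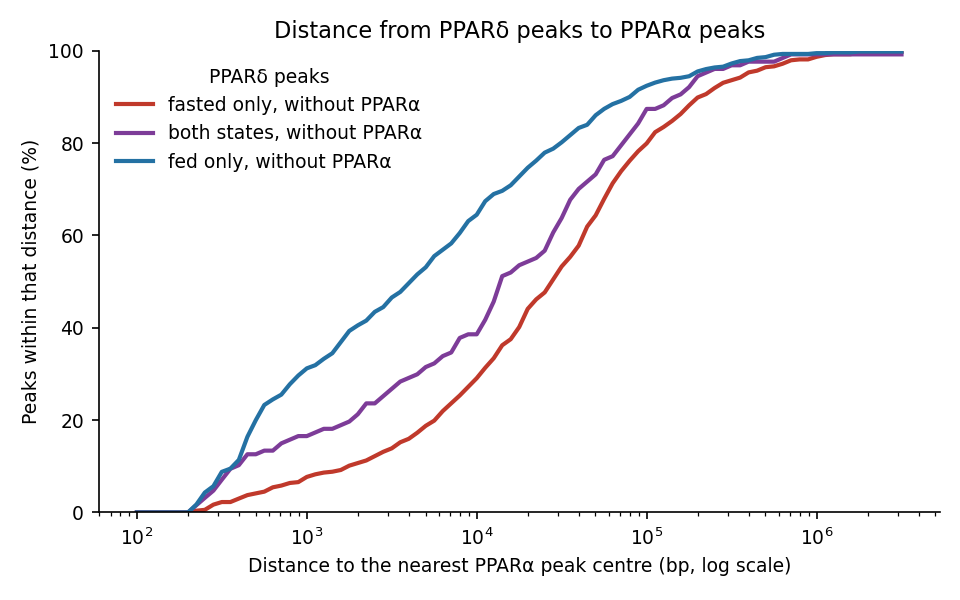
Share of PPARδ peaks in percent (y axis) that have a PPARα center of the fed or fasted list within the distance on the x axis (bp, log scale), for the 3 classes without PPARα within 200 bp. The curve of the 533 fasted-only sites lies below the other classes over most distances, with a median of 27803 bp against 4007 bp for fed-only peaks.

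The share of sites with a DR1 was of similar size near to and far from PPARα, with a wide interval for the nearest sites. A DR1 was found at 7 of the 41 sites within 1 kb of a PPARα center (17.1%), 20 of 114 between 1 and 10 kb (17.5%) and 65 of 378 beyond 10 kb (17.2%). AGGAAG was found at 26.8%, 51.8% and 36.8% of the same groups. For the 41 nearest sites the intervals were 8.53% to 31.3% for the DR1 and 15.7% to 41.9% for AGGAAG. At the 32 sites in promoters a DR1 was found at 3 (9.38%) and a half-site at 5 (15.6%), against 17.8% and 33.3% of the 501 other sites.

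BCL6, a transcriptional repressor, was seldom called at the 533 sites. A BCL6 center of any of the 3 BCL6 lists lay within 200 bp of 12 sites, or 2.25% (1.29% to 3.89%), whereas 54.4% of all fasted PPARδ peaks had one. Of the 3, 2 lists come from fed livers, the state of the fed-only class. Among the classes that also lack PPARα, the share was 22.1% (18.9% to 25.6%) of fed-only peaks (odds ratio 0.0813, adjusted p = 3.65e-26, two-sided Fisher's exact test) and 6.30% of peaks of both states (odds ratio 0.343, adjusted p = 0.037). With the BCL6 list of fasted livers alone, the shares were 1.5% and 4.14% of fed-only peaks (odds ratio 0.353, adjusted p = 0.0219). The difference from peaks of both states rested on 8 of 127 peaks and was lost with BCL6 counted within 100 bp (adjusted p = 0.0987), and turned with fasted BCL6 alone, where the shares were 1.5% and 0.787% (odds ratio 1.92, adjusted p = 1). At fasted-only peaks with PPARα the share was 50.6%, which is given without a test because BCL6 and PPARα sites coincide. By list, BCL6 of fasted C57BL/6 livers accounted for 8 of the 12 sites, that of fed C57BL/6 livers for 2 and that of fed Bcl6 fl/fl livers for 6.

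Of the 12, the BCL6 center was 3 bp from the PPARδ center at 2 sites. The first, in intron 1 of *Abhd2*, a lipid hydrolase gene, was marked by fed Bcl6 fl/fl livers only. The second, 23182 bp upstream of *Tead1*, the DNA-binding partner of YAP, was marked by fasted livers only. The site in intron 1 of *Bmp10*, a bone morphogenetic protein made in the heart and by stellate cells, had a fasted BCL6 center at 29 bp and no PPARα center nearer than 109266 bp. A site near *Zfp36l1*, an RNA decay factor, was the only 1 of the 10 closest with a BCL6 center in all 3 lists, at 76, 121 and 141 bp. The sites at *Adgra3*, *Prickle2*, *Nmbr*, *Pkib*, *Ccdc115* and *3110040M04Rik* completed the 10 closest. The BCL6 element was found at 4 of the 10, those at *Abhd2*, *Tead1*, *Adgra3* and *3110040M04Rik*.

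**Figure D4:**
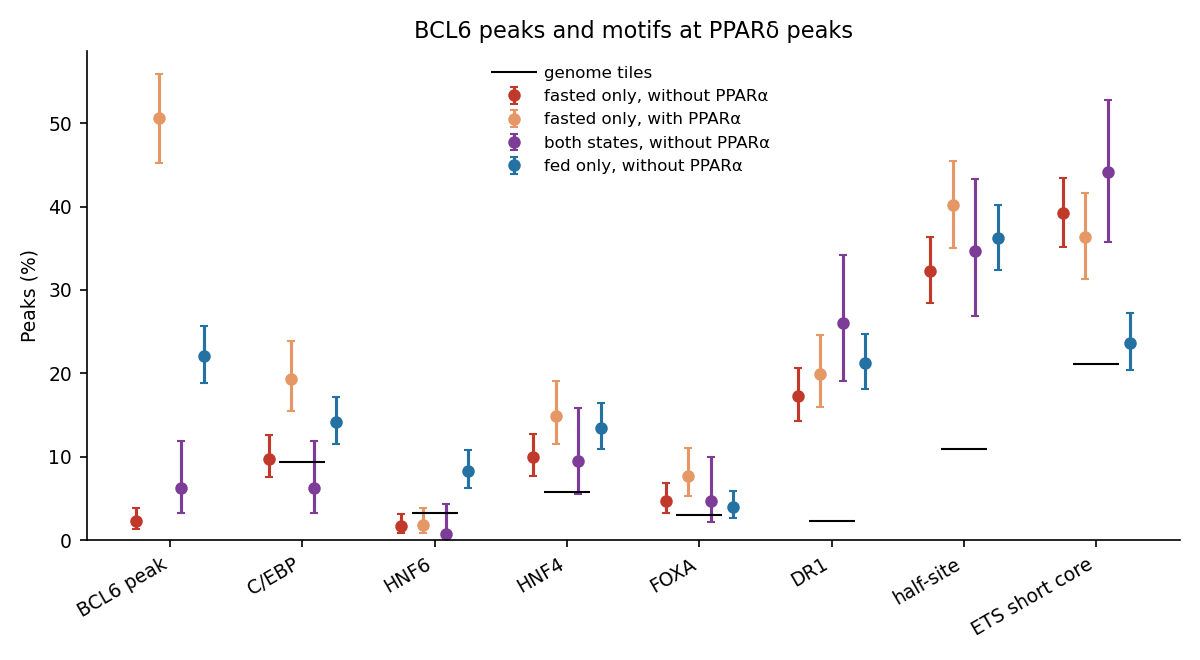
Share of peaks in percent (y axis) with a BCL6 peak of any list within 200 bp, or with each motif in a 200 bp window (x axis), for 4 classes of PPARδ peaks; points are shares, bars 95% Wilson intervals for counting error, and black dashes the share of genome windows for motifs. The 533 sites are lowest for BCL6 at 2.25%, close to the genome windows for C/EBP (9.76% against 9.39%) and below them for HNF6 (1.69% against 3.20%). For HNF6 the share in their neighbouring windows, not drawn, was 1.88%.

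Most sites were far from genes' starts. A promoter, from 1000 bp upstream to 100 bp downstream of any RefSeq TSS, held 32 sites, or 6.00% (4.28% to 8.35%), against 1.19% of genome windows. The test found no difference past its threshold from fasted-only peaks with PPARα (8.04%, adjusted p = 0.473), fed-only peaks without PPARα (7.07%, adjusted p = 0.545) or peaks of both states without PPARα (8.66%, adjusted p = 0.473, two-sided Fisher's exact tests). Outside promoters, 266 sites (49.9%, 45.7% to 54.1%) were intergenic, 221 (41.5%) lay in introns, 85 of them in intron 1, and 14 in exons. Of fed-only peaks without PPARα 34.0% (30.2% to 37.9%) were intergenic. The share was 41.7% (36.5% to 47.0%) of fasted-only peaks with PPARα and 44.9% (36.5% to 53.6%) of peaks of both states without it. The median distance to the nearest protein-coding TSS was 30905 bp, against 24739 bp for fasted-only peaks with PPARα and 20163 bp for fed-only peaks without it. In base composition the sites were close to the other classes, with a median GC content of 47.5% in these sites and in fed-only peaks without PPARα, and 48.5% in fasted-only peaks with it. The genome windows had a lower median of 41.5%, and the motif shares set against them were not adjusted for base composition. Only 15 windows, or 2.81%, were more than 50% repeat-masked, against 30.3% of genome windows.

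The 10 promoter sites closest to a protein-coding TSS had their centers within 95 bp of it. The site of *Sod3*, the extracellular superoxide dismutase, was 28 bp downstream of the TSS at chr5:52363730-52363934. That of *Hgf*, the hepatocyte growth factor made by cells other than hepatocytes, was 44 bp downstream at chr5:16553437-16553641, with no PPARα center of the fasted list nearer than 727654 bp. The site of *Cavin2*, a caveolar coat protein abundant in endothelium, was 85 bp downstream, with the nearest fasted PPARα center at 189437 bp, and that of *Gpihbp1* was described above. The others were at *Psip1*, a chromatin reader, *Eef1d*, a subunit of a translation factor, *Rpl19*, a ribosomal protein, *Atpsckmt*, *Fam227a* and *Fam53c*. At *Fam53c* a fasted PPARα center lay 276 bp away. None of the 10 held a DR1 with up to 2 mismatches, and 6 held AGGAAG, those of *Sod3*, *Hgf*, *Gpihbp1*, *Eef1d*, *Cavin2* and *Rpl19*. Over all 32 promoter sites, a DR1 was found at 3 (9.38%) and AGGAAG at 14 (43.8%), against 39.2% of the 533 sites for AGGAAG. The 10 are too few to tell apart from these shares.

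Few sites lay near known PPAR target genes. Of 48 target genes of fatty acid use, 2 had a site by nearest TSS, so that 2 of 529 sites with a TSS within 1 Mb, or 0.378% (0.104% to 1.37%), fell to the list, against 0.0984% of genome windows. The list took 4 of 336 fasted-only peaks with PPARα (1.19%). The 2 sites were near *Angptl4*, the secreted inhibitor of lipoprotein lipase, 7297 bp upstream at chr17:33788770-33788974, and *Cd36*, the fatty acid transporter, 30415 bp upstream at chr5:17919272-17919476. Both had PPARα peaks of the fasted list in the neighbourhood, 3786 and 4992 bp away. Fasting regulators and gluconeogenic genes had 3 sites (0.567%, against 0.211% of genome windows). At *Fkbp5*, a co-chaperone of the glucocorticoid receptor, intron 4 and intron 1 held 1 each, 57472 and 22053 bp downstream of the TSS, and the third lay 98387 bp downstream of the TSS of *Irs2*, an insulin receptor substrate. The list of lipogenic and sterol genes had 1 site (0.189%, against 0.11% of genome windows), in intron 1 of *Thrsp*, a lipogenic factor, 2927 bp downstream of its TSS. No site was nearest to any of 29 liver transcription factors and receptors or 18 clock genes, which take 0.263% and 0.112% of genome windows and 0 and 1 of the 336 fasted-only peaks with PPARα.

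The best DR1 match of 4 of these sites is printed, again with the match in capitals.
Angptl4, chr17:33788858-33788917, minus strand: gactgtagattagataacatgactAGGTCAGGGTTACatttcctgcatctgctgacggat
Cd36, chr5:17919390-17919449, plus strand: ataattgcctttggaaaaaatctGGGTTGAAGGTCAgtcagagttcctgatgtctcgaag
Thrsp, chr7:97414681-97414740, plus strand: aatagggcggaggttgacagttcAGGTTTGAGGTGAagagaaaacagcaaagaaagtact
Fkbp5, chr17:28428736-28428795, minus strand: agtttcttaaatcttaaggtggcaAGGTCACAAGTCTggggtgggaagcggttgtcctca
The match had 2 mismatches at the *Fkbp5* site that lay 57472 bp downstream, so that this site counts among those with a DR1. It had 3 at *Cd36* and *Thrsp*, and 4 at *Angptl4*, which are past the limit used above. Of genome windows, 14.3% had a best match with 3 mismatches and 49.9% had one with 4. The matches printed for *Fkbp5* and *Thrsp* lay 87.5 and 86.5 bp from the peak center, near the edge of the window. At *Angptl4* the first copy of the repeat was perfect and the second carried A8G, G10T, C12A and A13C. Each of the 4 windows held an AGGTCA half-site.

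Sites seldom clustered. The 529 sites with a TSS within 1 Mb fell to 494 genes, of which 462 had 1 site, 29 had 2 and 3 had 3. *Ptger2*, a prostaglandin E2 receptor, had its 3 sites 65256 to 87575 bp downstream of the TSS. *Wdr5*, a subunit of histone methyltransferase complexes, had 3 sites 39372 to 78627 bp downstream, and *Arhgap15*, a Rac regulator of blood cells, had 3 in introns 6, 8 and 10. In all, 18 sites formed 9 pairs within 10 kb, and no run of 3 or more was found. The 4 pairs that follow were picked after their values were seen. At *G0s2*, an inhibitor of adipose triglyceride lipase, the centers were 909 bp apart and 1 lay in the coding part of exon 2. At *Hamp*, the iron hormone hepcidin, they were 1115 bp apart, in intron 1 and in the 3′ UTR. At *Pltp*, the phospholipid transfer protein, they were 4601 bp apart. *Sparc*, a matrix protein of stellate and endothelial cells, had 2 sites in introns 1 and 2, 7877 bp apart.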

How the data were processed

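Per the labels and methods, ChIP-seq reads were aligned to mm10 with Bowtie, and HOMER called peaks on pooled replicates against input, after which DESeq2 filtered them on individual libraries. The deposited lists hold only the chromosome, start and end that the authors gave each peak, a position without count or score, in 7 lists of 3 replicates each (21 of 59 samples). The order of peaks was not used. The members and lists described here were chosen with earlier results of these data known.

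Peak centers were compared at 200 bp, with peaks of both states taken from the fasted list. RefSeq annotation of GRCm38 gave 45756 transcripts. Sequences were read from GRCm38 in windows of 200 bp, on both strands. Besides the motifs spelled out in the report, 10 were searched, and none differed past the threshold in 200 bp windows. Half-sites as a direct repeat with 4 bp between them (1 mismatch) were found at 0.375% of the sites, against 0.157% of genome windows, and as an inverted repeat with 1 bp at 0.188% and 0.0562%. CTCF (CCANNAGNGGGC) was at 0% and 0.554%, NRF1 (GCATGCGC) at 0.188% and 0.207%, and the GC box GGGCGG of SP and KLF factors at 6.38% and 1.91%. CCAAT was at 22.5% and 29.6%, and the YY1 element, with the letters ATGGCGG, at 0.563% and 0.416%. The E-box of bHLH factors, CACGTG, was at 1.13% and 1.91%, ZBTB33 (TCTCGCGAGA) at 0% and 0.00181%, and the AP-1 element, with the letters TGANTCA, at 7.50% and 5.95%. Neighbouring windows lay 1000 bp to either side. Peak numbers were put to Fisher's exact test (two-sided), and p-values were adjusted by Benjamini-Hochberg separately for promoters, BCL6 and motifs. Functions were tested on simulated data. Python 3.11.15, NumPy 2.4.6 and SciPy 1.17.1 were used.

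Named members were, by a rule, the 10 promoter sites closest to a coding TSS, the 10 with the closest BCL6 center, the 8 with fewest DR1 mismatches (ties by distance of the match from the center), genes with at least 3 members, members within 100 kb of the first 5 gene lists, runs within 10 kb, and 3 on either side of the limit, of which 1 outside it is not reported here.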

Additional observations from a re-analysis of the deposited data

How the results depend on the processing

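The number of sites was 571 at 100 bp, 517 at 400 bp, 490 at 1000 bp, 531 by overlap of the peak intervals and 532 on autosomes and X, against 533. The C/EBP difference from fasted-only peaks with PPARα and the HNF6 difference from fed-only peaks kept their direction and stayed past the threshold in windows of 50 bp, with masked bases left out and with sites chosen at 1000 bp. These 2 elements allow no mismatch, so the setting with fewer mismatches left them as they were. The number of motif comparisons past the threshold rose from 2 to 4 in 50 bp windows, with C/EBP (adjusted p = 0.00671) and AP-1 (0.375% against 2.59%, adjusted p = 0.0376) against fed-only peaks, and to 3 with 1 mismatch fewer, with HNF4 against fed-only peaks (adjusted p = 0.0406). The BCL6 difference from fed-only peaks had an odds ratio of 0.353 with fasted BCL6 alone, against 0.0813. The BCL6 difference from peaks of both states had an odds ratio of 0.386 and missed the threshold at 100 bp, and turned to 1.92 (adjusted p = 1) with fasted BCL6 alone, where the other class had 1 such peak. Ribosomal protein genes were nearest to 1 site within 100 kb, against 2 within 1 Mb. The causes were not tested. Motifs without a match in a class gave no odds ratio. Promoter shares passed the threshold under no definition tried. No paired analysis was possible because each list pools its 3 replicates and holds no column per replicate. For the same reason no replicate could be left out, and depth, which limits calls near the threshold, is unknown.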

Other observations

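The remaining gene groups were spread thinly over the 529 sites with a TSS within 1 Mb. Zinc finger protein genes were nearest to 9 sites (1.70%, against 1.36% of genome windows), olfactory receptor genes to 4 (0.756%, against 1.28%) and ribosomal protein genes to 2 (0.378%, against 0.336%). Respiratory complex I and mitochondrial carrier genes were each nearest to 1 site (0.189%, against 0.119% and 0.123%), and mitochondrial ribosomal protein and proteasome genes to 0 (genome windows 0.192% and 0.0793%). No symbol of the histone list matched the annotation.

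By chromosome, the sites ran from 35.8 per 100 Mb on chromosome 19 and 32.8 on chromosome 11 to 3.51 on the X chromosome, where 6 of the 533 lay (1.13%, against 1.04% of all fasted PPARδ peaks and 6.28% of the genome). The Y chromosome held 1 site. Several sites lay at or within genes that hepatocytes transcribe strongly, named here after their values were seen. The center was 197 bp downstream of the TSS of *Tdo2*, which degrades tryptophan, 201 bp at *Serpina3k*, a secreted protease inhibitor, 415 bp at *Bhmt*, which remethylates homocysteine, and 504 bp at *Ftl1*, the ferritin light chain. PPARα centers of fasted livers lay 391, 275, 394 and 610 bp from the centers of these 4 sites, in the same order.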
